A study of Mus musculus with 8 samples.

Results

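The VHJ558 genes nearer the D segments are the genes of the mouse VH1 family, named IGHV1 in the deposited tables, that occupy the D-proximal stretch of the family's territory in the immunoglobulin heavy-chain locus on chromosome 12. They were chosen by position alone, as IGHV1 genes whose interval starts (mm10) lie at or below that of IGHV1-48 at chr12:115038227-115038520, and they numbered 48 of the 159 VH genes with any read. The first was IGHV1-1 at chr12:114351705-114351995. The next IGHV1 gene, left outside, was IGHV1-49 at chr12:115055223-115055516. IGHV1-48 had 0 reads in the controls and 1 read in the knockouts, and IGHV1-49 had 45 and 16, so the position of the boundary moved few reads. GENCODE M21 annotates all 48 genes on the minus strand, 23 as functional V genes and 25 as pseudogenes. Their starts lay 870 to 1556 kb beyond the end of the last D segment.

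A heavy-chain variable region is built by joining a D segment to a JH segment and then a V segment to the DJ join. VHJ558 is the largest VH family of the mouse and lies far from the D segments, and its joining depends on contraction of the locus, which brings distal V segments near the D segments. V pseudogenes can still be joined and transcribed, but they do not encode a working heavy chain. Setd2 encodes a methyltransferase that trimethylates histone H3 in the bodies of transcribed genes.

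Pro-B cells were sorted from the bone marrow of untreated 8-week-old mice as B220+, Cd43+, IgM- and CD25- cells, and their poly-A RNA was sequenced. Pro-B cells are the stage at which heavy-chain genes are joined. The 4 control and 4 Setd2 knockout samples differ in the genetic alteration that the labels name and share a sequencing batch. The labels give no strain, allele, deleting Cre line or animal per sample, so a p-value here measures only how the 8 samples vary, and some of that variation may be technical.

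VH segments drew 35505 to 53071 reads per control, and 25533, 22369, 1637 and 56542 in knockouts 1 to 4, so knockout 3 stood apart by depth. Its member genes together had 340 reads, and a gene with no read there may still have held up to 0.183% of its VH reads. All values below are shares of a sample's VH reads unless another total is named, so a gene that takes more leaves less for the others. Genes outside the immunoglobulin loci, Setd2 among them, were not analysed here, so neither the knockout nor the pro-B identity was checked on RNA. Switched constant regions, which mark later B-lineage cells, took 52.6, 57.6, 51.0 and 52.8% of constant-region reads in controls 1 to 4 against 31.8, 41.1, 6.69 and 44.2% in knockouts 1 to 4. All 6 switched constant genes on the marker list (IGHG1, IGHG2B, IGHG2C, IGHG3, IGHA and IGHE) had reads in every sample. The shares of IGHA and IGHG3 overlapped between the groups, and those of IGHG1, IGHG2B, IGHG2C and IGHE did not. IGHA had 14662 of 43018 constant-region reads in knockout 4, above its highest control share (11859 of 35612 in control 2). IGHG3 had 481 reads in knockout 1 and 30 to 76 per control. IGHD took 0.651 to 0.977% in controls and 0.467 to 0.759% in knockouts, and light-chain reads per heavy-chain read were 1.1 to 1.5 and 0.492 to 1.44. The summed switched share did not overlap between the groups, whereas the IGHD and light-chain values did, and the part of such cells in the V gene results was not tested. In bulk RNA, fewer cells that use a V gene and less RNA per such cell cannot be told apart.

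The V exons show how close these genes are to each other. Those of IGHV1-26, the most read member in controls, IGHV1-18 and IGHV1-15, which led the members in single knockouts, and IGHV1-47, the member with the lowest p, are given as the 294 bases counted in the files (GENCODE M21 transcripts, GRCm38, minus strand, 5′ to 3′). Capitals mark bases that differ from the nearest gene, which is IGHV1-18 for IGHV1-26, IGHV1-26 for IGHV1-18, IGHV1-23 for IGHV1-15 and IGHV1-14 for IGHV1-47.
IGHV1-26: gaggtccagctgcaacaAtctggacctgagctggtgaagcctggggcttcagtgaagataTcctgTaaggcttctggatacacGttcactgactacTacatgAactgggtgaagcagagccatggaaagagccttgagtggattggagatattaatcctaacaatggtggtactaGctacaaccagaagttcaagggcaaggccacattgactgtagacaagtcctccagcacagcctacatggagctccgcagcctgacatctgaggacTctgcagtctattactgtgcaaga
IGHV1-18: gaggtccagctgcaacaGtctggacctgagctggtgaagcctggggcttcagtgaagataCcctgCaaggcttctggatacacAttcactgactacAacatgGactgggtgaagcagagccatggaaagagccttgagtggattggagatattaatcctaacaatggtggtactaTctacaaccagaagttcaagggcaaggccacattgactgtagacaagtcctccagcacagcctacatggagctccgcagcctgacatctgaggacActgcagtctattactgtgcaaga
IGHV1-15: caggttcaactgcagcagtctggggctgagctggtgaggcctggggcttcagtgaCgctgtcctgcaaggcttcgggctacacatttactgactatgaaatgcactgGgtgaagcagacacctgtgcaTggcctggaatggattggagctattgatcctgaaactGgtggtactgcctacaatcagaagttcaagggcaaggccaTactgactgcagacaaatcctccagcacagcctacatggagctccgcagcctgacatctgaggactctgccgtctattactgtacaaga
IGHV1-47: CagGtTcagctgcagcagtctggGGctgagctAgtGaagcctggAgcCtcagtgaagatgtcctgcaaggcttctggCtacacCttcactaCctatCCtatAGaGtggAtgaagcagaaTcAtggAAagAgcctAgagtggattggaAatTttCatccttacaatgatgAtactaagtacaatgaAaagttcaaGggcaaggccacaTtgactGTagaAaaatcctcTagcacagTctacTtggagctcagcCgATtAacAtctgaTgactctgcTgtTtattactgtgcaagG
IGHV1-26 (chr12:114788372-114788665) and IGHV1-18 (chr12:114682632-114682925) differed at 8 of these bases and IGHV1-15 (chr12:114657353-114657646) and IGHV1-23 at 5, whereas IGHV1-47 (chr12:114991108-114991401) differed from its nearest gene at 46.

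Over the 34 members with at least 10 reads in all, the V exon was 82.3 to 98.7% identical to that of its nearest VH gene, with a median of 94.4%. In 17 of them no stretch of 75 bases, the read length, occurred in another VH transcript, and in the other 17 some did, in none over 50% of the stretches. Single-gene values are therefore uncertain to the extent that reads of close copies were divided between them. IGHV1-23 shares 6.06% of its stretches with IGHV1-15, and its reads came to 7.79, 6.66, 5.36 and 6.15% of those of IGHV1-15 in controls 1 to 4, and to 27.3, 11.3, 3.64 and 5.71% in knockouts 1 to 4. In knockout 4 both genes were at their highest share. How many IGHV1-23 reads came from IGHV1-15 was not tested.

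The summed share of the 48 genes was lower in every knockout than in any control. It was 21.7, 23, 21.4 and 21% in controls 1 to 4 against 17.0, 18.6, 20.8 and 18.4% in knockouts 1 to 4, with means of 21.8% ± 0.890 (SD, n = 4) and 18.7% ± 1.56 (SD, n = 4). The gap between control 4 and knockout 3 was small: the 95% Wilson interval of knockout 3 was 18.9 to 22.8%, which covers controls 1, 3 and 4. Without knockouts 3 and 4 the difference was -4.02 percentage points, against -3.12 with all samples. Wilson intervals and the limits for a count of 0 cover counting error only. As a share of all heavy-chain locus reads, the members had 9.44 to 13.7% in controls and 2.81 to 10.3% in knockouts, with overlap.

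Part of that share came from a single gene in 2 knockouts. Without the most read member of each sample, the remaining members held 17.1 to 18.2% in controls and 10.2, 13, 17.4 and 5.97% in knockouts 1 to 4, so knockout 3 then lay within the control range. Among VHJ558 reads alone the groups overlapped: the nearer genes took 34.0% ± 0.731 (SD, n = 4) in controls and 31.6% ± 3.89 (SD, n = 4) in knockouts, with knockout 1 at 35.6% and knockout 2 at 26.8%. Without the most read IGHV1 gene of each sample the direction turned, with means of 35.3% in controls and 40.8% in knockouts. The 36 VHJ558 genes farther away held 42.3% ± 1.41 (SD, n = 4) and 41.2% ± 8.18 (SD, n = 4) of VH reads. No test was made of a difference between the nearer and the farther genes.

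Fewer of the 48 genes were seen in the knockouts, and those seen shared their reads less evenly. In controls 38, 38, 39 and 40 members had a read, and in knockouts 32, 32, 21 and 38. At an equal 1637 VH reads, the expected numbers were 26.9, 27.3, 25.5 and 25.2 in controls and 19, 21, 21 and 18.3 in knockouts, so the groups did not overlap at equal depth. The effective number of members, the exponential of the Shannon entropy of their reads, was 14.6, 15, 15.2 and 15.4 in controls and 7.45, 11.2, 11.8 and 4.25 in knockouts. Controls thus stood close together, with a mean of 15.1 ± 0.338 (SD, n = 4), and knockouts spread widely below them, with a mean of 8.68 ± 3.53 (SD, n = 4). The same measures were not taken over all VH genes or over the farther VHJ558 genes. Whether these differences are particular to the members was therefore not tested.

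**Figure D1:**
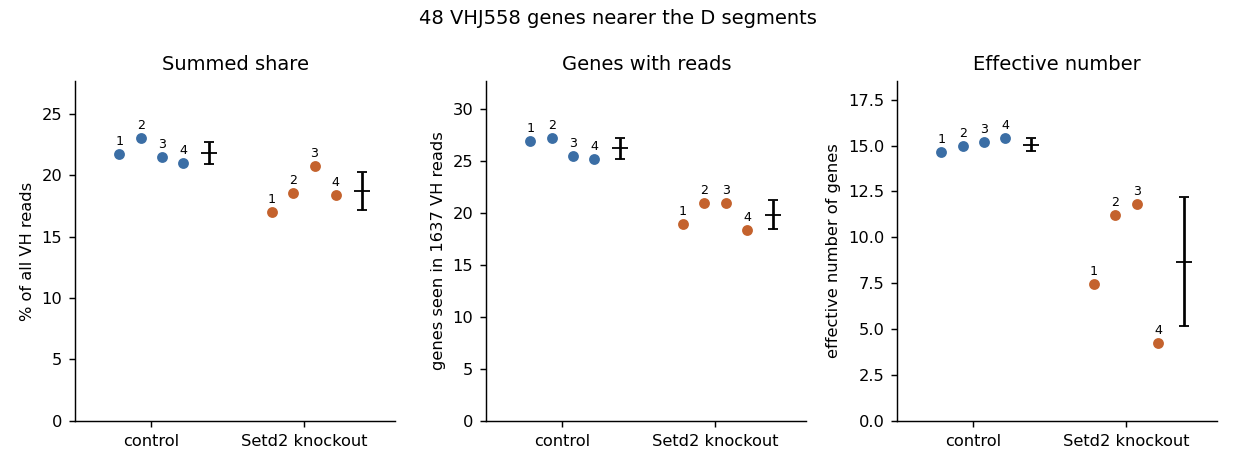
Summed share of VH reads in percent, expected number of member genes seen in 1637 VH reads, and effective number of member genes, for 4 controls and 4 Setd2 knockouts. Points are samples with their replicate numbers and bars are mean ± SD; every knockout lies below every control in each panel, by the least in the summed share (20.8% in knockout 3 against 21% in control 4).

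A different gene led in different knockouts. IGHV1-26 led in controls 1, 2 and 4, with 21.3, 20.9 and 17.7% of member reads, and IGHV1-7 led in control 3 with 15.3%. In knockout 1 IGHV1-18 held 40.0% of member reads, in knockout 2 IGHV1-26 held 29.8%, in knockout 3 IGHV1-7 held 16.2%, and in knockout 4 IGHV1-15 held 67.5%. The leading gene's part was thus at most 21.3% in controls and above that in every knockout but the shallow knockout 3.

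**Figure D2:**
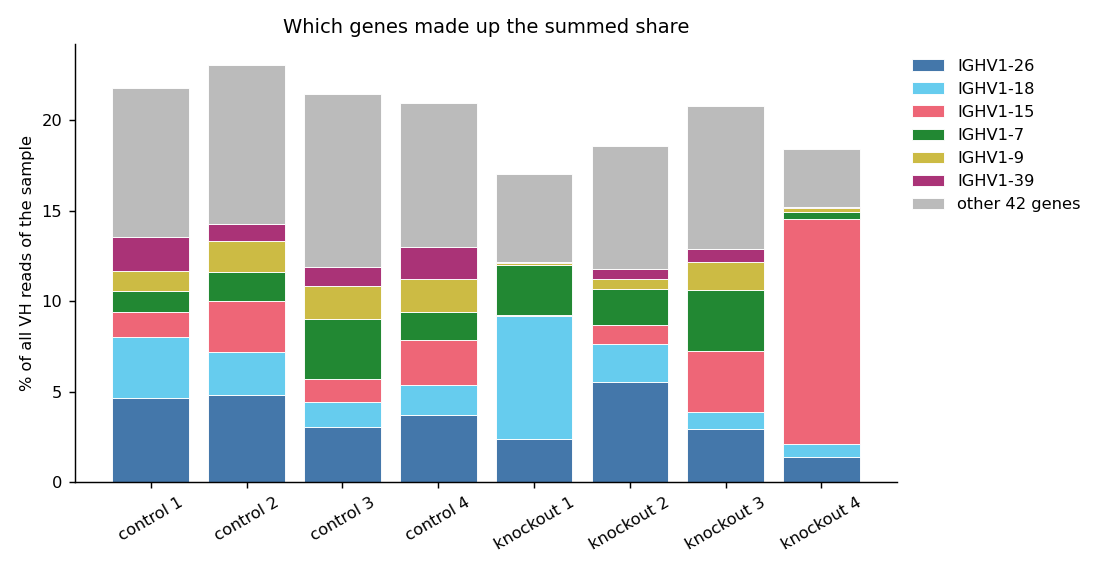
Stacked shares of VH reads in percent per sample for the 6 member genes most read in controls and the other 42 together. The controls resemble each other, while IGHV1-18 fills 6.79% of VH reads in knockout 1 and IGHV1-15 fills 12.4% in knockout 4.

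IGHV1-15, a functional gene, gave the widest range. Its share was 1.35, 2.80, 1.31 and 2.48% in controls 1 to 4 against 0.0431, 1.07, 3.36 and 12.4% in knockouts 1 to 4. Knockout 4, with 7027 of its 56542 VH reads on this gene, was above every control, and knockout 1, with 11 reads, below every control. The log2 fold change was 1.09 (SE 1.05, adjusted p = 0.523, Benjamini-Hochberg adjustment after edgeR's quasi-likelihood test, used for every adjusted p unless another is named) and was -0.47 without knockout 4.

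IGHV1-18, a functional gene close to IGHV1-26 in sequence, had 3.40, 2.39, 1.35 and 1.69% in controls 1 to 4 against 6.79, 2.08, 0.977 and 0.746% in knockouts 1 to 4. Only knockout 1 exceeded the control range and the other 3 knockouts lay inside or below it. Its log2 fold change was 0.27 (SE 0.79, edgeR adjusted p = 0.872), and -0.79 without knockout 1.

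IGHV1-26 itself had 4.64, 4.82, 3.07 and 3.71% in controls 1 to 4 against 2.40, 5.53, 2.93 and 1.38% in knockouts 1 to 4. Knockout 2 was above every control and the other 3 below, at a log2 fold change of -0.41 (SE 0.67, edgeR adjusted p = 0.751), and of -0.86 without knockout 2. IGHV1-7, a functional gene at chr12:114538495-114538788, had 1.2, 1.58, 3.28 and 1.55% in controls 1 to 4 against 2.76, 2.01, 3.36 and 0.338% in knockouts 1 to 4. Its groups overlapped over most of their range (log2 fold change 0.15, SE 0.76, edgeR adjusted p = 0.938). IGHV1-4, which shares 31.6% of its stretches with IGHV1-7, averaged 1.24% ± 0.777 and 1.07% ± 0.217 (SD, n = 4 each), and IGHV1-34 averaged 1.18% ± 0.171 and 1.11% ± 0.514 (SD, n = 4 each). The log2 fold changes of these last genes were -0.22 (SE 0.69) and -0.086 (SE 0.67), and their edgeR adjusted p-values were 0.886 and 0.951.

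No member passed the test of a difference between the groups. Of the 34 members tested, 0 were called at an adjusted p under 0.05, and of all 130 VH genes tested 0 were called (0% lower and 0% higher). At an unadjusted p under 0.05, 9 members were lower in the knockouts and 0 higher, against 34 lower (26.2%) and 2 higher (1.54%) of the 130. With DESeq2, 6 of the 130 VH genes were called (4.62%), and 1 of them, IGHV1-47, was a member. The other 14 of the 48 members, 2 functional genes and 12 pseudogenes, had under 10 reads over all samples and were not tested.

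The measured share of 10 tested members was below every control in all 4 knockouts, and 0 were above. That is 29.4% of the 34, against 24.6% of the 130 VH genes, which is near the background. In 7 of the 10 knockout 3 had 0 reads, and the share that this still allows lay above every control for 6 of them and above the lowest control for IGHV1-47, so those genes were not told apart from controls in that sample. Without knockout 3 the number was 13 of 34 (38.2%), against 33.1% of all VH genes. The 10 were 4 of the 21 functional genes (IGHV1-22, IGHV1-31, IGHV1-39 and IGHV1-47) and 6 of the 13 pseudogenes (IGHV1-17, IGHV1-21-1, IGHV1-25, IGHV1-28, IGHV1-29 and IGHV1-30). Without knockout 2 the number was 16 (47.1%), against 33.1% of all VH genes, and without knockouts 3 and 4 it was 15 (44.1%), against 36.9%. The median log2 fold change of the members was -1.11, that of the farther VHJ558 genes -0.90 and that of all tested VH genes -0.82. Scaling by trimmed means of M-values (TMM) moved these medians above 0, to 0.084 for the members and 0.18 for all, and left 3 members lower (8.82%) and 1 higher (2.94%) at an unadjusted p under 0.05, against 11 lower (8.46%) and 14 higher (10.8%) of all 130. Whether the typical member is read as lower in the knockouts thus depends on the scaling.

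IGHV1-47, a functional gene and the most distant tested member, 1509 kb from the D segments, came closest to the threshold. It had 54, 91, 111 and 283 reads in controls 1 to 4, which are 0.138, 0.171, 0.313 and 0.626%, and 0, 7, 0 and 2 reads in knockouts 1 to 4. These are 0.0313% in knockout 2 and 0.00354% in knockout 4, while the 0 allows up to 0.0117% in knockout 1 and 0.183% in knockout 3. Knockouts 1, 2 and 4 lay below every control, and knockout 3 was too shallow to be told from controls 1 and 2. The log2 fold change was -4.89 (SE 1.15), and edgeR's adjusted p was 0.0514. Over 16 alternative settings the adjusted p ran from 0.00203 to 0.186 and was past the threshold in 8. It was 0.0494 without control 4, 0.0106 without knockout 2 and 0.00451 with DESeq2, but 0.136 without control 2, 0.0858 without the genes over 10% of a sample in the library size and 0.186 with TMM.

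IGHV1-39 and IGHV1-22 were the most read members whose measured shares did not overlap, though the Wilson interval of knockout 3 covered a control for both. IGHV1-39, functional, at chr12:114914599-114914892, had 1.91, 0.953, 1.04 and 1.77% in controls 1 to 4 against 0.0783, 0.505, 0.733 and 0.0619% in knockouts 1 to 4. Knockouts 1 and 4 were lowest (log2 fold change -2.13, SE 0.88, edgeR adjusted p = 0.141). IGHV1-22, functional, at chr12:114746273-114746566, had 0.853, 2.01, 0.887 and 1.03% in controls 1 to 4 against 0.411, 0.313, 0.428 and 0.255% in knockouts 1 to 4. Its knockouts were unusually close to each other, with a coefficient of variation of 0.234 against 0.459 in controls (log2 fold change -1.78, SE 0.70, edgeR adjusted p = 0.132).

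IGHV1-9, functional, at chr12:114583569-114583862, had 1.07, 1.74, 1.83 and 1.80% in controls 1 to 4 against 0.0940, 0.554, 1.53 and 0.251% in knockouts 1 to 4. Knockout 3 alone reached the control range (log2 fold change -1.48, SE 0.84, edgeR adjusted p = 0.257), and without it the log2 fold change was -2.43 (edgeR adjusted p = 0.0893).

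**Figure D3:**
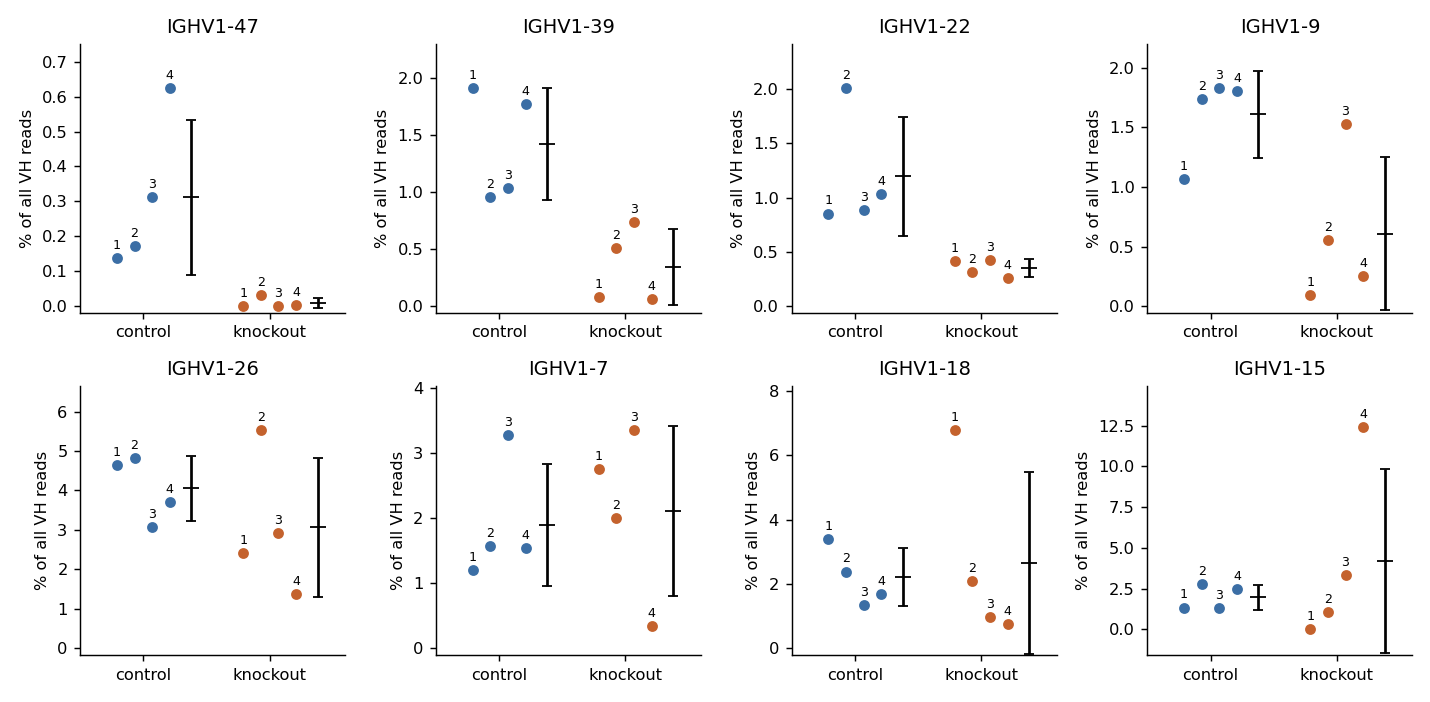
Share of VH reads in percent for 8 member genes, each on its own axis from 0, in 4 controls and 4 Setd2 knockouts. Points are samples with replicate numbers and bars are mean ± SD, which can run below 0. The upper row holds genes low in most knockouts (IGHV1-47, 0 to 0.0313% in knockouts). The lower row holds genes that each led the members in some sample (IGHV1-15, 12.4% in knockout 4).

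The less read functional genes of low p also averaged lower in the knockouts, without passing. IGHV1-36 had 98, 330, 27 and 16 reads in controls 1 to 4 against 4, 12, 0 and 1 in knockouts 1 to 4, so its control range was wide and overlapped knockout 2 (log2 fold change -3.54, SE 1.16, edgeR adjusted p = 0.0831). IGHV1-31 averaged 0.267% ± 0.0481 in controls and 0.0870% ± 0.0419 in knockouts (SD, n = 4 each). Its measured shares did not overlap, but knockout 3 had only 1 read. IGHV1-43 averaged 0.0891% ± 0.0369 and 0.0299% ± 0.0222, and IGHV1-37 averaged 0.134% ± 0.0270 and 0.0350% ± 0.0506 (SD, n = 4 each), both with overlap. The log2 fold changes of these genes were -1.56 (SE 0.71), -1.98 (SE 0.86) and -1.69 (SE 0.88), and their edgeR adjusted p-values were 0.160, 0.151 and 0.217. Without knockout 1 the log2 fold change of IGHV1-37 was -3.17, and that of IGHV1-36 ran from -5.01 to -2.51 with a sample left out.

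Pseudogene members had few reads in either group. Together they held 1.15, 1.25, 0.898 and 0.973% of VH reads in controls 1 to 4 against 0.427, 0.854, 0.977 and 0.481% in knockouts 1 to 4, with knockouts 1, 2 and 4 below every control. Of the 25 pseudogenes, 17 or 18 had a read in each control and 11, 12, 6 and 16 in knockouts 1 to 4. IGHV1-17 had 29 reads over the 4 controls and 1 over the 4 knockouts, a pooled ratio of 17.8 (95% exact interval 2.95 to 727). IGHV1-25 had 54 and 2, a ratio of 16.6 (4.37 to 140.3). Both intervals cover counting error of the pooled reads only and leave out the spread between samples. IGHV1-29 had 10 and 0, which is 2.05-fold lower in the knockouts when these are set at a limit of 3 reads over the group. That value leaves out the counting error of the 10 control reads and the spread between samples, so it is not a lower bound.

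IGHV1-28 had 17, 19, 20 and 13 reads in controls 1 to 4 against 0, 4, 0 and 8 in knockouts 1 to 4 (log2 fold change -1.96, SE 0.97), and IGHV1-30 had 22, 19, 13 and 29 and 9, 0, 0 and 4 (log2 fold change -1.86, SE 1.01, and -3.43 without knockout 1). Their edgeR adjusted p-values were 0.185 and 0.238, and those of IGHV1-17, IGHV1-25 and IGHV1-29 were 0.0831, 0.0831 and 0.141. IGHV1-2, the tested member nearest the D segments at 987 kb, had 0.141, 0.128, 0.141 and 0.0973% in controls 1 to 4 against 0.0117, 0.0984, 0.0611 and 0.157% in knockouts 1 to 4. Its highest value was in knockout 4 (log2 fold change -0.56, SE 0.80, edgeR adjusted p = 0.701), without which the log2 fold change was -1.18.

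Along the cluster, the members more distant from the D segments had the lower median fold change. The 17 tested members from IGHV1-2 to IGHV1-23, at 987 to 1282 kb, had a median log2 fold change of -0.43, and the 17 from IGHV1-25 to IGHV1-47, at 1299 to 1509 kb, one of -1.69. The closer genes together held 11.6, 13.8, 14.4 and 12.6% in controls 1 to 4 against 12.6, 10.2, 13.8 and 16.2% in knockouts 1 to 4. The more distant genes held 10.1, 9.23, 7.04 and 8.34% and 4.41, 8.33, 6.84 and 2.17%. By measured share knockouts 1, 3 and 4 lay below every control and knockout 2 within the control range. Knockout 3, with 1637 VH reads in all, was close to control 3 (6.84 against 7.04%), a gap not tested against counting error. Spearman's rho between position and log2 fold change was -0.394 over the 34 genes, which share libraries and a fixed total. Over the same genes rho between mean control share and log2 fold change was 0.421. Whether the fold changes follow position or read level was not tested. These sets were drawn after the values were seen and were not tested, and 16.2% in knockout 4 rested on IGHV1-15.

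**Figure D4:**
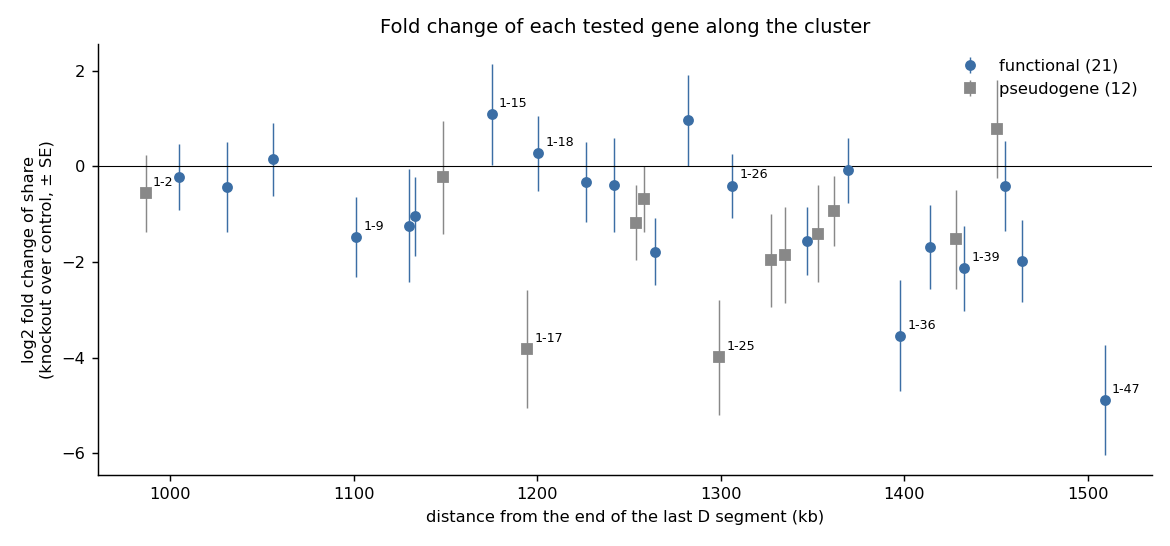
Log2 fold change of share (knockout over control, edgeR, bars ± SE) of 33 tested member genes against distance in kb from the end of the last D segment, with functional genes as circles and pseudogenes as squares; IGHV1-29, with 0 knockout reads, is left out. Values run from 1.09 for IGHV1-15 to -4.89 for IGHV1-47, the most distant gene, and none passed the adjusted threshold.

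Knockouts varied more between samples than controls did, for nearly every member. Of the 33 tested members with reads in both groups, 30 (90.9%) had a larger coefficient of variation over the knockouts, with medians of 0.381 in controls and 1.07 in knockouts. The same held for 92.0% of the 125 VH genes with reads in both groups, which is about the members' share. Without knockout 3, whose low depth adds counting error, it held for 28 of the 33, with a knockout median of 0.822. The exceptions with all samples were IGHV1-4, IGHV1-22 and IGHV1-38. Across the 21 functional tested members, Spearman's rho of log2 shares between samples ran from 0.776 to 0.898 for pairs of controls and from 0.552 to 0.822 for pairs of knockouts.

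**Figure D5:**
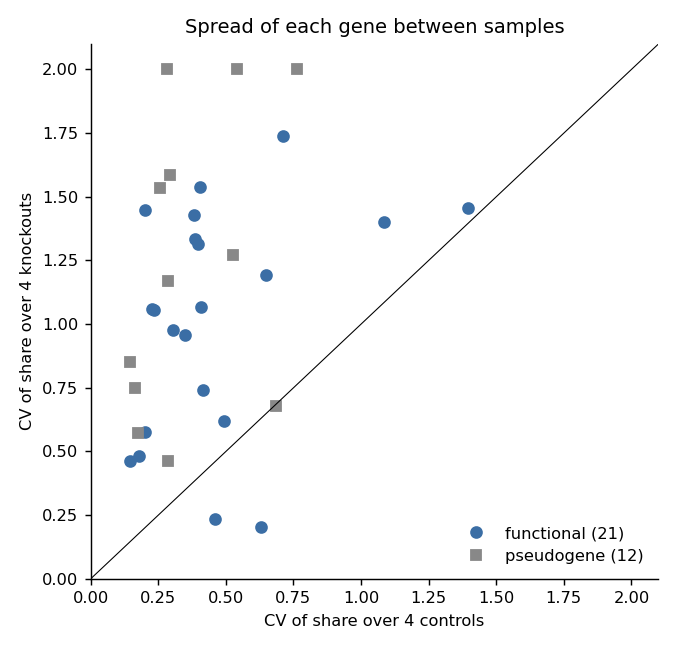
Coefficient of variation (CV) of the share of VH reads over the 4 knockouts against that over the 4 controls for 33 tested member genes, with the diagonal of equal spread. 30 of the 33 points lie above the diagonal.

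Clonotypes, counted as distinct complete CDR3 nucleotide sequences in the assembled contigs, weigh each joined gene once and not by its RNA. Many clonotypes list several V genes. Labels can also disagree with segment reads. In control 3, 2 clonotypes with 15 contig reads listed IGHV1-8 alone, but its segment had 0 reads there. The exons end alike: 23 of the 34 tested members end in tgtgcaaga. The last 60 bases of 4 members are shown because clonotypes often list IGHV1-26, IGHV1-22 and IGHV1-15 together and IGHV1-18 by itself, with capitals where they differ from IGHV1-26 (GENCODE M21, GRCm38, minus strand).
IGHV1-26: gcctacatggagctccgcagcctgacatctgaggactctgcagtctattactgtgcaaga
IGHV1-18: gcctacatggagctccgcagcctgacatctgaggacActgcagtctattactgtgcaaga
IGHV1-22: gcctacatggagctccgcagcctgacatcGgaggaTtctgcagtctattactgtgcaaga
IGHV1-15: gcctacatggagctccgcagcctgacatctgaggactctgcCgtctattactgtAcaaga
IGHV1-31 and IGHV1-34 are identical to IGHV1-26 over this stretch. IGHV1-15, whose last 9 bases are tgtacaaga, shares them with IGHV1-5 and IGHV1-23.

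By clonotypes, the members' shares in the groups overlapped, while clonotypes of any kind were fewer in every knockout than in any control. The clonotype numbers were not adjusted for depth. Heavy-chain locus reads were 64488 to 89908 in controls and 54626, 41368, 12102 and 100600 in knockouts 1 to 4. Controls 1 to 4 had 780, 740, 638 and 760 clonotypes with a V gene listed, and knockouts 1 to 4 had 179, 231, 66 and 207. Those that listed members only numbered 50, 53, 44 and 50, and 12, 16, 6 and 18. These are 6.41, 7.16, 6.90 and 6.58% in controls and 6.70, 6.93, 9.09 and 8.70% in knockouts, with overlap. Clonotypes that listed at least 1 member, together with other genes or not, made up 57.4 to 63.3% in controls and 45.8, 60.2, 62.1 and 54.1% in knockouts 1 to 4. Those that listed a member together with other genes, and so could not be assigned, made up 50.3 to 56.9% in controls and 39.1, 53.2, 53.0 and 45.4% in knockouts 1 to 4.

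Among clonotypes listing members only, the label of IGHV1-15, IGHV1-20, IGHV1-22, IGHV1-23, IGHV1-26, IGHV1-31 and IGHV1-34 together was the most frequent, with 57 clonotypes over the controls and 12 over the knockouts. IGHV1-7 alone had 28 and 10, IGHV1-18 alone 23 and 9, IGHV1-9 alone 27 and 2, and IGHV1-47 alone 6 and 0. The totals behind these counts were 197 and 52. For IGHV1-18 in knockout 1, where it held the most reads, 4 clonotypes named it alone and the largest had 29 reads, against at most 10 for a clonotype of members only that listed it in the controls. For IGHV1-15 in knockout 4 the assembled contigs held little of the segment's reads: the largest clonotype listing it had 14 reads, against 7027 reads on the segment. In that sample 1978 reads lay on complete clonotypes and 1295 of them on clonotypes with a V gene listed. Whether an unlisted clonotype carried IGHV1-15 was not tested.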

How the data were processed

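Reads were aligned with STAR 2.5.1 to mm10, per the submitters' processing notes, and immunoglobulin sequences were assembled with TRUST, per the series design text, whose version the sources used here do not give. The deposited heavy-chain tables hold whole-number read counts per gene segment and per contig that were not normalized, as the file headers and the values show. Counts of a gene's intervals were summed. Light-chain contig tables were not used.

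edgeR 4.0.16, run in R 4.3.3, compared the VH gene counts of the 4 control and 4 Setd2 knockout samples by its quasi-likelihood test (library size the VH read total, no further scaling, at least 10 reads per gene over all samples, Benjamini-Hochberg adjustment over 130 genes, adjusted p under 0.05). DESeq2 1.42.0, other scalings and filters, the replicate number as a block and each sample left out were alternatives. The test was tested on simulated data. Each gene was drawn there with the same spread in both groups, whereas the knockouts here varied more than the controls. Summed values over the members carry no p.

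V exons came from GENCODE M21, matched by symbol for 48 of 48 members. The counted intervals of IGHV1-42 and IGHV1-33 miss 41 and 42 bases at the 3′ end of the V exon. Named genes were members past the threshold (0), the 12 of lowest p, the 6 most used in each group, and the nearest and farthest tested; IGHV1-21-1, IGHV1-23 and IGHV1-38 were named after their values were seen. The members and the lists were chosen with earlier results of these data known. Python 3.11.15, numpy 2.4.6, pandas 2.3.3, scipy 1.17.1 and matplotlib 3.10.9 were used.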

Additional observations from a re-analysis of the deposited data

Results flagged for a closer look

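Among the 53 groups of 4 samples examined for an outlying sample, 5 had a gap above Dixon's critical value for that group size. Chance alone gives about 1 in 20 groups where no values are tied. The groups of IGHV1-17 and IGHV1-25 held ties at 0, so that rate does not hold for them. The share of IGHV1-9 was 1.07% in control 1, with the next control at 1.74%. The share of IGHV1-22 was 2.01% in control 2, with the next at 1.03%. IGHV1-47 stood at 0.0313% in knockout 2, with the next knockout at 0.00354%. IGHV1-17 and IGHV1-25 had reads in knockout 4 alone among the knockouts, at 0.00177% and 0.00354%, which are 1 and 2 reads. With the other knockouts tied at 0, any read count there gives the largest possible gap, so these flags carry no weight. In knockout 3 a 0 still allows 0.183%.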

How the results depend on the processing

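The lower summed share, with a difference of -3.12 percentage points, stayed between -3.81 and -2.56 with each sample left out. It was -6.03 without the most read member of each sample, an alternative chosen after seeing the data, and the mean log2 share over the members differed by -1.37. With all heavy-chain locus reads as the total, the difference was -4.06 percentage points and the groups overlapped. The nearer share of VHJ558 reads differed by -2.39 percentage points (-3.72 to -0.79 with a sample left out) and reversed to 5.51 without the most read IGHV1 gene of each sample. The number of members at equal reads differed by -6.39 (-6.78 to -4.75), and the effective number by -6.38 (-7.42 to -4.90). Clonotypes listing members only differed by 1.09 percentage points (0.680 to 1.48), by -4.52 with any listed V gene and by 2.0 with contig reads. Members below every control numbered 10 (10 to 16) and 4 among functional genes. Moving the boundary by 50 kb to either side only dropped IGHV1-48 (1 read) or added IGHV1-49 (45 control and 16 knockout reads), so it could change little.

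The number of VH genes called was 0 (0 to 5 with a sample left out), of which members 0 (0 to 1). It was 6 of 130 with DESeq2 (1 of 34 members), and 6 of 69 with IGHV1 genes only and IGHV1 reads as library (3 of 34). With all heavy-chain locus reads as library it was 26 of 130 (7 of 34 members), so the members were near the background. It was 6 of 159 with no filter (1 of 48 members) and 4 of 109 with at least 50 reads (1 of 30). The member median of -1.11 (-1.34 to -0.86) became 0.084 with TMM, 0.12 with DESeq2 and -0.56 without genes over 10% of a sample. It was -1.40 with locus reads, -0.62 with no filter, and -1.04 with IGHV1-29 set at 3 knockout reads. The cause of these shifts was not tested. With TMM the log2 fold changes of IGHV1-2, IGHV1-4, IGHV1-26 and IGHV1-34 were 0.98, 0.86, 0.53 and 0.87, and with DESeq2 0.93, 0.87, 0.54 and 0.90. Without genes over 10% those of IGHV1-2, IGHV1-4 and IGHV1-34 were 0.26, 0.21 and 0.22. IGHV1-34 was at 0.036 with IGHV1 reads, and IGHV1-7 at -0.47 with locus reads. With a sample left out, IGHV1-4 ran from -0.44 to 0.29, IGHV1-7 from -0.16 to 0.55, IGHV1-15 from -0.47 to 1.5, IGHV1-18 from -0.79 to 0.59 and IGHV1-34 from -0.37 to 0.18.

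With the replicate number as a block, 15 of 130 VH genes were called, and 2 of 34 members (IGHV1-36 and IGHV1-47). The member median was then -1.36, and IGHV1-7, IGHV1-15 and IGHV1-18 were at -0.10, -0.35 and -0.22. Correlations between same-numbered samples were 0.103, 0.0711, 0.00885 and 0.0282, against -0.123 to 0.0909 between other-numbered samples. Replicate 1 lay above that range and the rest within it. The numbers were not taken to pair the samples, but these values do not settle whether they do. Depth limits knockout 3 most.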

Other observations

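Among clonotypes listing members only, 18, 67, 15 and 28 used IGHJ1, IGHJ2, IGHJ3 and IGHJ4 in controls and 10, 18, 8 and 10 in knockouts, where a JH gene was listed. Their CDR3 was 12.4 ± 0.283 amino acids long on average in controls (SD over 4 sample means) and 13.5 ± 1.01 in knockouts, with overlapping samples. Clonotypes listing no member averaged 13.4 ± 0.107 and 13.6 ± 0.351 (SD, n = 4 each). No test was made of these values.

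The 12 VH genes of other families that lie among the members had 4.31% ± 1.12 of a control's VH reads and 4.27% ± 2.58 of a knockout's (SD, n = 4 each). Of the 12, 2 (16.7%) were below every control in all knockouts, against 24.6% of the 130 VH genes tested.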
